A study of Mus musculus with 6 samples.

Results

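The transcripts examined are 10 genes best known from spermatids, the haploid cells that follow meiosis: Prm1, Prm2, Tnp1, Tnp2, Odf1, Akap4, Smcp, Oaz3, Actl7b and Crisp2. They were taken from the deposited count table by symbol, and all 10 were found among its 50763 symbols. The samples were whole testes of mice at postnatal day 14, with 3 wild-type samples (WT) and 3 samples of the genotype called sKO, a conditional Rif1 knockout made in germ cells before meiosis. The sources used here do not give the Cre driver, the deleted exons, the strain or the number of animals per sample. P-values therefore cover the spread among the 6 samples and nothing more, and that spread may be technical.

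As a spermatid condenses its nucleus, histones give way to transition proteins and these to protamines, while the tail and the acrosome are built in the cytoplasm. Most of these mRNAs are made in round spermatids, many under the transcription factor CREM, and are stored before they are translated. By postnatal day 14 the leading germ cells are in meiotic prophase, and spermatids are yet to form in quantity.

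Total counts per library ranged from 15941672 to 18296594 read counts. A count of 0 has a 95% Poisson interval that reaches 3.69 counts. The floor used here was set slightly lower, at 3 counts. It equals 0.165 to 0.186 CPM, the usual scaling of counts by library size, here with TMM factors. Such floors, and the intervals below, cover counting error only, since reads counted without molecular identifiers can be copies of 1 molecule. The targeted gene, Rif1, had between 1420 and 2073 counts in WT and between 699 and 894 in sKO, and its edgeR log2 fold change was -1.17 with a standard error (SE) of 0.15 (adjusted p = 0.0145). All 14 markers of germ, Sertoli, Leydig and peritubular cells were above the floor in every library. None had an edgeR adjusted p under 0.05, and 4 of the 14 had negative estimates. Ddx4 of germ cells lay below WT in every sKO library (log2 fold change -0.71, edgeR adjusted p = 0.143). So did 10.6% of all genes tested. Sox9, Wt1 and Star lay above WT in every sKO library (0.26, 0.26 and 1.27, edgeR adjusted p = 0.243, 0.181 and 0.319). The other markers overlapped. The part of cell make-up was not tested. Markers of the epididymis, the duct beside the testis, summed over 19 genes to 277.9 CPM in sKO library 1, against 12.0 to 37.7 CPM in the other libraries. Most of that sum came from Crisp1 (89.5 CPM), Spink8 (72.5), Cdh16 (43.6) and Defb42 (34.4). Not all 19 were raised, and Crisp4, Lcn8, Lcn9 and Lcn10 had 0 counts in sKO library 1. The part of epididymal RNA in the results below was not tested.

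In these testes 7 of the 10 transcripts had at most 8 counts in any library, with 12 of their 42 values above the floor, and 3 transcripts were above it in every WT library. The 3 were Crisp2, Actl7b and Oaz3. Only Oaz3 was above the floor in every sKO library as well. Of all symbols, 40.2% were above the floor in every WT library and 39.5% in every sKO library. Actl7b, an actin-like gene, fell in sKO and passed the test, with a WT mean 11.1-fold above its sKO mean. The ratio was 13.8-fold for Crisp2, a secretory protein gene, which did not pass, and 2.34-fold for the antizyme Oaz3, which did not pass either.

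**Figure D1:**
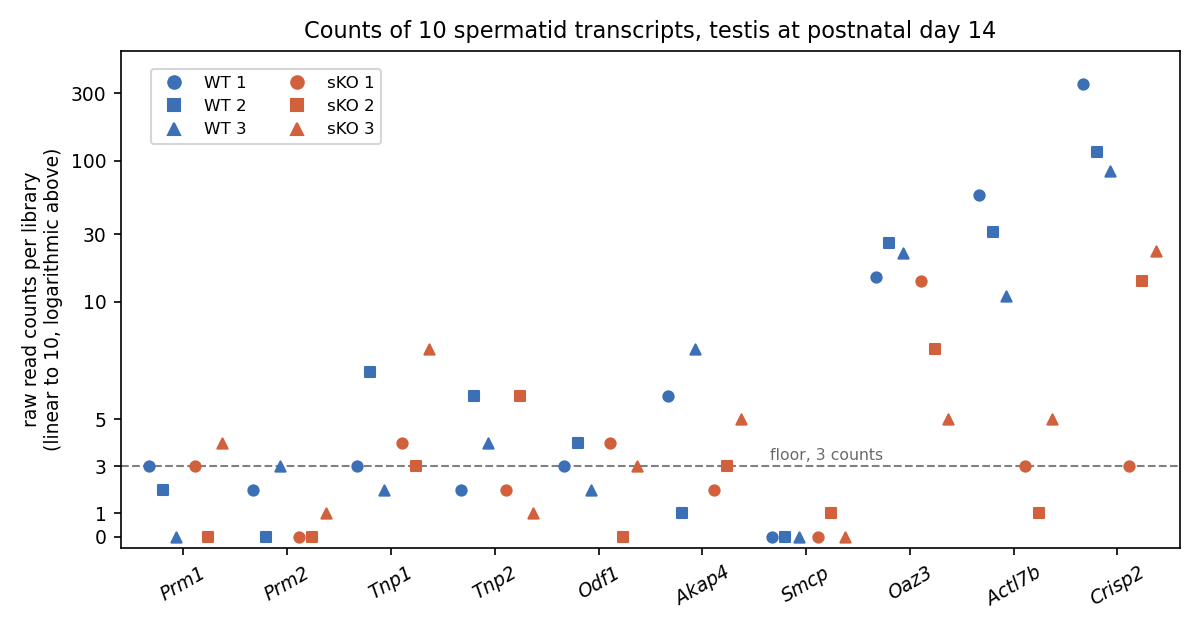
Raw read counts (y axis, linear to 10 and logarithmic above) of the 10 transcripts (x axis) in each of 3 WT (blue) and 3 sKO (orange) libraries, with symbols marking the library number and a dashed line at the floor of 3 counts. Prm1, Prm2, Tnp1, Tnp2, Odf1, Akap4 and Smcp have 0 to 8 counts in every library, while Crisp2 has 84 to 349 in WT and 3 to 23 in sKO.

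The protamines Prm1 and Prm2, which package the DNA of the sperm head, were barely counted. In the order of library numbers, Prm1 had 3, 2 and 0 counts in WT and 3, 0 and 4 in sKO. Prm2 had 2, 0 and 3 counts in WT and 0, 0 and 1 in sKO. The groups overlapped for both genes, and only 1 of their 12 values was above the floor, that of Prm1 in sKO library 3. Exact two-sided permutation tests of CPM, 3 WT against 3 sKO libraries, gave p = 0.6 for Prm1 and p = 0.4 for Prm2, where the smallest p that this design allows is 0.1.

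The transition proteins Tnp1 and Tnp2, which take the place of histones before the protamines are laid down, were counted slightly more often. Tnp1 had 3, 7 and 2 counts in WT and 4, 3 and 8 in sKO. Tnp2 had 2, 6 and 4 counts in WT and 2, 6 and 1 in sKO. Neither separated the groups (exact permutation p = 0.5 and p = 0.8), and neither was above the floor in all libraries of a group. Prm1, Prm2 and Tnp2 lie together with Prm3 within 10 kb on chromosome 16 in the GENCODE annotation (GRCm38), and Prm3 had 0 counts in all 6 libraries. Tnp1 lies on chromosome 1, and the antisense gene 1700027A15Rik covers 9.15% of its exon bases in that annotation.

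The 3 tail proteins also had few counts, and Smcp had the fewest. Odf1, of the outer dense fibres along the flagellum, had 3, 4 and 2 counts in WT and 4, 0 and 3 in sKO. Akap4, the X-linked scaffold protein of the fibrous sheath, had 6, 1 and 8 counts in WT and 2, 3 and 5 in sKO. Smcp, a cysteine-rich protein of the mitochondrial sheath, had 0 counts in every WT library and a single count in sKO library 2. The floor was 0.168, 0.176 and 0.186 CPM in WT libraries 1 to 3. The groups overlapped for all 3 genes, with exact permutation p = 0.8 for Odf1, p = 0.5 for Akap4 and p = 1 for Smcp.

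Summed over these 7 genes, the libraries had 19, 20 and 19 counts in WT and 15, 13 and 22 in sKO. The sKO values lay on both sides of the WT values, so a difference between genotypes was not detectable at this depth. The 7 genes had 1.1 to 61.8 counts per kb of exon over all 6 libraries, with a median of 14.5. For scale, 20 genes of distant tissues (liver, pancreas, eye, muscle and others) had a median of 10.6 counts per kb and a range of 0 to 365.2. The 13 of them that, like the 7, did not pass the filter on low counts had a median of 6.18 and a highest value of 12.6. Tnp1 at 61.8, Tnp2 at 37.9, Prm1 at 21.0 and Odf1 at 14.5 counts per kb were above that highest value. These genes are short, with 437 to 1105 exon bases, and a filter on counts caps counts per kb less tightly in short genes. The comparison per kb therefore depends on length. In total counts over the 6 libraries, Tnp1 had 27, Akap4 25, Tnp2 21, Odf1 16, Prm1 12, Prm2 6 and Smcp 1. The median total was 16 for the 7 and 9 for the 13. Alb and Krt12, the highest of the 13, had 23 each. Without the filter on low counts, edgeR gave log2 fold changes from -1.997 (Prm2) to 1.87 (Smcp) for the 7, and the smallest of their adjusted p was 0.706.

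Crisp2, a cysteine-rich secretory protein of the acrosome and the tail, was the most abundant of the 10 in WT. It had 349, 115 and 84 counts in WT and 3, 14 and 23 in sKO. That is 19.5, 6.76 and 5.21 CPM in WT and 0.180, 0.846 and 1.26 CPM in sKO. The groups did not overlap, WT library 1 stood high and sKO library 1 was at the floor. The WT mean was 10.5 ± 7.86 CPM and the sKO mean 0.763 ± 0.546 CPM (SD, n = 3 each). Its edgeR log2 fold change of -3.76 (SE 0.73) had an adjusted p of 0.0665, which missed the threshold of 0.05.

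The call for Crisp2 depended on which libraries entered. Without WT library 1, the highest, it was -2.95 with an edgeR adjusted p of 0.0270, and without WT library 3 it was -4.08 with 0.0247. Without both libraries numbered 1 it was -2.51 with an edgeR adjusted p of 0.00266. It did not pass without WT library 2 (edgeR adjusted p = 0.152) or without sKO library 1, 2 or 3 (0.131, 0.332 and 0.0868). The estimate was negative in all 12 alternatives. The WT mean was 5.99 CPM without WT library 1. The close relatives Crisp3 and Crisp4 had 1 and 0 counts over all 6 libraries. Crisp1, an epididymal relative, had 5, 181 and 41 counts in WT and 1493, 89 and 0 in sKO; sKO library 1, where Crisp1 was highest, was the library with the fewest Crisp2 counts.

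Actl7b, an actin-like protein needed for the shaping of spermatids and encoded by a single exon on chromosome 4, was the only member that passed the test. It had 57, 31 and 11 counts in WT and 3, 1 and 5 in sKO. Every WT library was above the floor, and of the sKO libraries only library 3 was. The WT mean was 1.90 ± 1.26 CPM and the sKO mean 0.172 ± 0.107 CPM (SD, n = 3 each), with pooled 95% Poisson intervals of 1.58 to 2.36 and 0.0800 to 0.332 CPM. The edgeR log2 fold change of Actl7b was -3.40 with an SE of 0.66 (adjusted p = 0.0417). Of the 18860 genes tested, 1.27% were called lower and 0.0318% higher, and 0.557% had an estimate of -3 or lower.

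The Actl7b call was narrow. The WT mean was 1.25 CPM without WT library 1. Leaving out WT library 1 or 2 gave edgeR adjusted p of 0.102 and 0.159 at log2 fold changes of -2.80 and -3.43. Leaving out sKO library 1 or 2 gave 0.127 and 0.188 at -3.44 and -3.02. Actl7b passed the low-count filter through its WT counts alone. Its neighbour Actl7a, a spermatid actin-like gene close by on the chromosome, had 0, 2 and 2 counts in WT and 0 in every sKO library. In the GENCODE annotation (GRCm38) Gm26657 covers 90.9% of the Actl7b exon on the opposite strand, and the sources used here do not say whether counting used strand, so reads of the pair cannot be told apart.

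**Figure D2:**
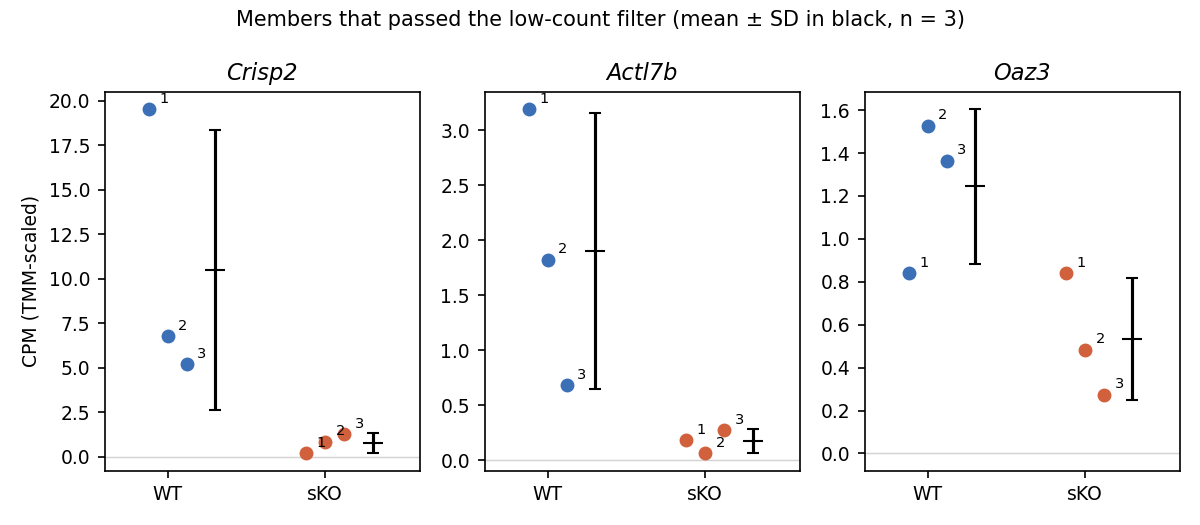
CPM (y axis, a separate linear scale for each gene) of Crisp2, Actl7b and Oaz3 in 3 WT (blue) and 3 sKO (orange) libraries, with the library number beside each point and the mean ± SD in black. The sKO points of Crisp2 reach 1.26 CPM against a lowest WT value of 5.21, while for Oaz3 WT library 1 and sKO library 1 lie at the same height.

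Oaz3, an antizyme made in haploid germ cells that inhibits ornithine decarboxylase, differed less. It had 15, 26 and 22 counts in WT and 14, 8 and 5 in sKO, or 1.24 ± 0.360 and 0.532 ± 0.285 CPM (SD, n = 3 each). WT library 1 and sKO library 1 both had 0.839 CPM, and with plain library totals the groups overlapped. Its edgeR log2 fold change of -1.22 (SE 0.46) had an adjusted p of 0.256, and it was negative in all 12 alternatives, which called it in 0. Oaz3 was lowest in WT in library 1, the library where Crisp2 and Actl7b were highest, so its order among the libraries differed from theirs.

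The Oaz3 counts carry a further limit. In the GENCODE annotation (GRCm38) the exons of Tdrkh, a germ granule gene on the opposite strand, cover 52.1% of the Oaz3 exon bases, and those of Mrpl9 cover 3.63%. Tdrkh had 2409, 1746 and 1735 counts in WT and 1622, 1400 and 1730 in sKO, so that it was counted far more often than Oaz3, and its log2 fold change was -0.32 (edgeR adjusted p = 0.247). How much of the Oaz3 count comes from Tdrkh transcripts was not tested. The ubiquitous antizymes Oaz1 and Oaz2 had log2 fold changes of 0.00 and -0.12 (edgeR adjusted p = 0.994 and 0.714).

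All 3 tested members had every sKO library below every WT library in TMM-scaled CPM, as did 10.6% of all genes tested. None of the other 7 did, and among all symbols with at least 1 count the share was 7.89%. A gene can pass the filter by being high in 1 group. All 3 were above its 0.597 CPM in every WT library, but none was in every sKO library. Crisp2 was at 0.180 CPM in sKO library 1, and Oaz3 was at 0.274 CPM in sKO library 3. Like Actl7b, both therefore needed their WT counts to be tested, and the count of 3 supports no direction. For each of Crisp2, Actl7b and Oaz3 the exact permutation p was 0.1, the smallest possible. In bulk tissue, fewer cells of a type and less RNA per cell cannot be told apart.

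The order of the 10 mean levels per kb of exon differed between genotypes, but 7 of them rest on at most 8 counts in any library. The level of Oaz3 was divided by 4326 exon bases, of which Tdrkh exons cover 52.1%. In WT the means ran from Crisp2 at 3.73 CPM per kb through Actl7b at 1.32, Tnp1 at 0.537, Tnp2 at 0.429, Oaz3 at 0.288, Prm1 at 0.167, Odf1 at 0.159, Prm2 at 0.111 and Akap4 at 0.0981 to Smcp at 0. In sKO Tnp1 led at 0.656 CPM per kb, ahead of Tnp2 at 0.323 and Crisp2 at 0.271, and Actl7b was seventh at 0.119. Neighbours in either order overlapped in their library values, except Akap4 and Smcp in WT. Crisp2 made up 79.3%, 59.9% and 61.8% of all counts of the 10 genes in WT and 8.57%, 38.9% and 41.8% in sKO.

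The levels of Crisp2 and Actl7b were set beside those of spermatocyte genes. A list of genes known from pachytene spermatocytes, the cells of mid-prophase, had 24 members in the table, including Sycp3 and Iho1, which are expressed from earlier in prophase. It summed to 2265, 1467 and 1178 CPM in WT and to 588, 645 and 989 CPM in sKO. Without Sycp3 and Iho1, a choice made after seeing the data, the sums were 1754, 1193 and 860 CPM in WT and 382, 424 and 605 CPM in sKO, in the same order of libraries. Crisp2 was likewise highest in WT library 1 and lowest in WT library 3, and lowest in sKO library 1 and highest in sKO library 3. Actl7b followed the same order in WT but was lowest in sKO library 2, where it had 1 count. The part of spermatocyte number in the Actl7b and Crisp2 results was not tested.

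**Figure D3:**
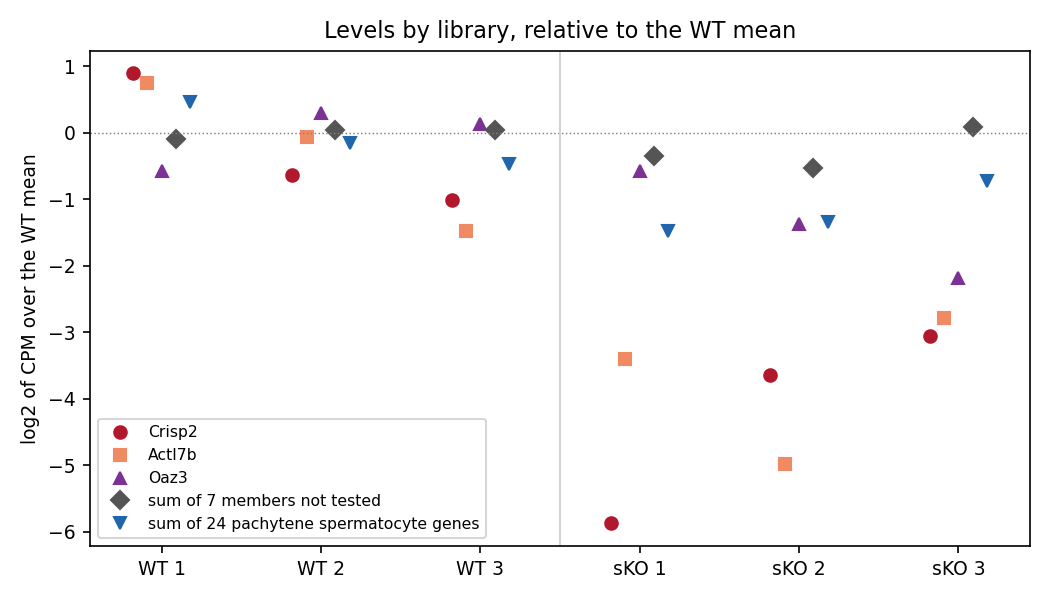
Levels in each library (x axis, 3 WT and 3 sKO) as log2 of CPM over the WT mean (y axis) for Crisp2, Actl7b, Oaz3, the sum of the 7 transcripts with at most 8 counts and the sum of 24 pachytene spermatocyte genes. Crisp2 spans 0.90 in WT library 1 to -5.87 in sKO library 1, while the sum of the 7 stays between -0.54 and 0.08.

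Of the 21 pachytene genes tested, 4 were called lower and 0 higher, 19 had negative estimates and the median log2 fold change was -1.41. Of all 18860 genes tested, 1.27% were called lower and 0.0318% higher, 8437 had negative estimates and the median was 0.03. The 4 include Ybx2, which is also in the list of activators and storage factors below. As with every edgeR call, these were lost in the fits without WT library 2, sKO library 1 or sKO library 2. The estimates of Crisp2 and Actl7b lay inside the range of this list, -4.16 to 0.18. Ldhc, the germ cell lactate dehydrogenase, marked its lower end (edgeR adjusted p = 0.0657).

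The 5 genes whose profile was most like that of Crisp2, by Pearson correlation of log2 CPM over the 6 libraries among 16993 genes, were Gk2, Gm5878, Hdgfl1, Ccdc60 and Cmtm2a, with r between 0.996 and 0.998. Of these, 4 were called lower, where 1.27% of all genes tested were. Gm5878 had the largest estimate at -3.93 (SE 0.61, edgeR adjusted p = 0.0286). The 5 were picked for following Crisp2 over both genotypes, so lower sKO values came with the choice. Their calls are therefore no further support for that of Crisp2. Gk2, a testis glycerol kinase of the pachytene list, had a log2 fold change of -2.71 and an edgeR adjusted p of 0.0515. For Actl7b the 5 were Inhca, Ubash3a, 1700012B09Rik, Gm31097 and Rpn2 (r 0.995 to 0.997), and 0 of them were called. For Oaz3 they were Ndufa4l2, Mblac1, Kifc1, Tnks and Aurkaip1 (r 0.972 to 0.985), again with 0 called. Crisp2 and Actl7b had r = 0.904 with each other over the 6 libraries. These correlations describe 6 libraries that share the difference between genotypes.

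Promoters were compared because CREM, the activator of many spermatid genes, binds the palindrome TGACGTCA and relatives of it. RefSeq promoter sequences (GRCm38.p6) were found for 8 of the 10 genes, as 9 promoters of 300 bases, with 250 before and 50 after the annotated start. The 100 bases before the start are shown for Actl7b and Crisp2, which were above the floor in every WT library, and for Prm1, Tnp1 and Akap4, which were not above it in every WT library. Each reads 5′ to 3′ on the strand of the gene, with capitals for matches to TGANNTCA, a pattern that equals its own reverse complement and contains TGACGTCA.
Actl7b (chr4:56741426-56741525, minus strand): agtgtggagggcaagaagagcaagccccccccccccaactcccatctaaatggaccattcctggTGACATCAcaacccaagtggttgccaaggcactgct
Crisp2 (chr17:40794147-40794246, minus strand): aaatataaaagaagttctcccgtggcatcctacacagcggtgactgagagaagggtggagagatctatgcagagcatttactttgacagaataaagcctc
Prm1 (chr16:10796824-10796923, minus strand): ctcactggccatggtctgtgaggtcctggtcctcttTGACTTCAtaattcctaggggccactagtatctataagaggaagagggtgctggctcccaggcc
Tnp1 (chr1:73015900-73015999, minus strand): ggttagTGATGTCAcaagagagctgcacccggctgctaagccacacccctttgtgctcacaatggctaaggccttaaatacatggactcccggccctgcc
Akap4 (chrX:7067415-7067514, plus strand): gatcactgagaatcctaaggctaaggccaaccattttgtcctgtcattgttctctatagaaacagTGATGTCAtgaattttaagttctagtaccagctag

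TGANNTCA occurred in 6 of the 9 promoters, those of Prm1, Tnp1, Smcp and Actl7b and both of Akap4, and in 14.1% of the 32851 promoters of the same length. The match began 36 bases before the start in Actl7b, 64 in Prm1, 94 in Tnp1 and 35 in the Akap4 promoter shown, and 24 bases after the start in Smcp. TGATGTCA or its reverse complement TGACATCA, a variant picked after these promoters had been read, was present in Tnp1, Akap4, Smcp and Actl7b and in 3.62% of all promoters. TGACGTCA itself occurred in 0 of the 9 and in 1.79% of all. Crisp2, Prm2 and Tnp2 held no match to TGANNTCA within these 300 bases. A match is a description of letters and not a site of binding.

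A further list held 20 activators and mRNA storage factors of germ cells. All 20 were above the floor in every WT library and 18 in every sKO library, where 40.2% and 39.5% of all symbols were. Whether each acts on these 10 mRNAs was not tested. Of 20 activators and storage factors 19 were tested, 3 were called lower and 0 higher, and the median log2 fold change was -0.59. Over all genes tested 1.27% were called lower and 0.0318% higher, and the median was 0.03. Like every other edgeR call, these 3 were lost in the fits without WT library 2, sKO library 1 or sKO library 2. Crem itself had 625, 362 and 341 counts in WT and 323, 244 and 470 in sKO, and its groups overlapped (edgeR log2 fold change -0.37, SE 0.24, adjusted p = 0.551). The 3 called were Rfx2, a transcription factor of spermatids and ciliated cells, the germ cell mRNA-binding protein Ybx2, and Pabpc2, a testis poly(A)-binding protein with close paralogs. Rfx2 fell from a WT mean of 43.6 ± 10.7 CPM to an sKO mean of 16.9 ± 4.56 CPM (SD, n = 3 each; edgeR log2 fold change -1.37, adjusted p = 0.0299). Ybx2 and Pabpc2 fell by 1.55 and 3.83 on the log2 scale (edgeR adjusted p = 0.0490 and 0.0317). Pabpc2 had 73, 34 and 13 counts in WT and 1, 3 and 4 in sKO. Of its sKO libraries only library 3 was above the floor, and it passed the low-count filter through its WT counts alone. Fhl5, a coactivator of CREM in spermatids, had 2 to 6 counts per library and was not tested.

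A wider list of 44 spermatid genes, of which 43 were in the table, was examined next. Counts of 0 in all 6 libraries were found for 9 of them: Prm3, H1f7, Capza3, Actrt1, Actrt2, Cylc2, Spaca3, Spaca4 and Cabs1. That is 20.9% of the list, where 30.9% of all symbols had 0 counts. The filter was passed by 17 of them, or 39.5%, close to the 37.2% of all symbols. Of the 17, 1 was called lower, 0 were called higher, 13 had negative estimates and the median log2 fold change was -0.65. Among all 18860 genes tested, 1.27% were called lower and 0.0318% higher, 8437 had negative estimates and the median was 0.03. Ropn1l, a sperm fibrous sheath protein, was the gene called, and fell from a WT mean of 32.6 ± 13.4 CPM to an sKO mean of 8.21 ± 3.21 CPM (SD, n = 3 each; edgeR log2 fold change -1.99, SE 0.36, adjusted p = 0.0495). This call too was lost in the fits without WT library 2, sKO library 1 or sKO library 2. Odf4, an outer dense fibre gene, had 401, 194 and 84 counts in WT and 4, 14 and 25 in sKO without passing (edgeR log2 fold change -3.96, SE 0.71, adjusted p = 0.0548). Spaca1, an acrosomal membrane protein, had 194, 108 and 101 counts in WT and 157, 129 and 155 in sKO, with overlapping groups (edgeR adjusted p = 0.854).

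**Figure D4:**
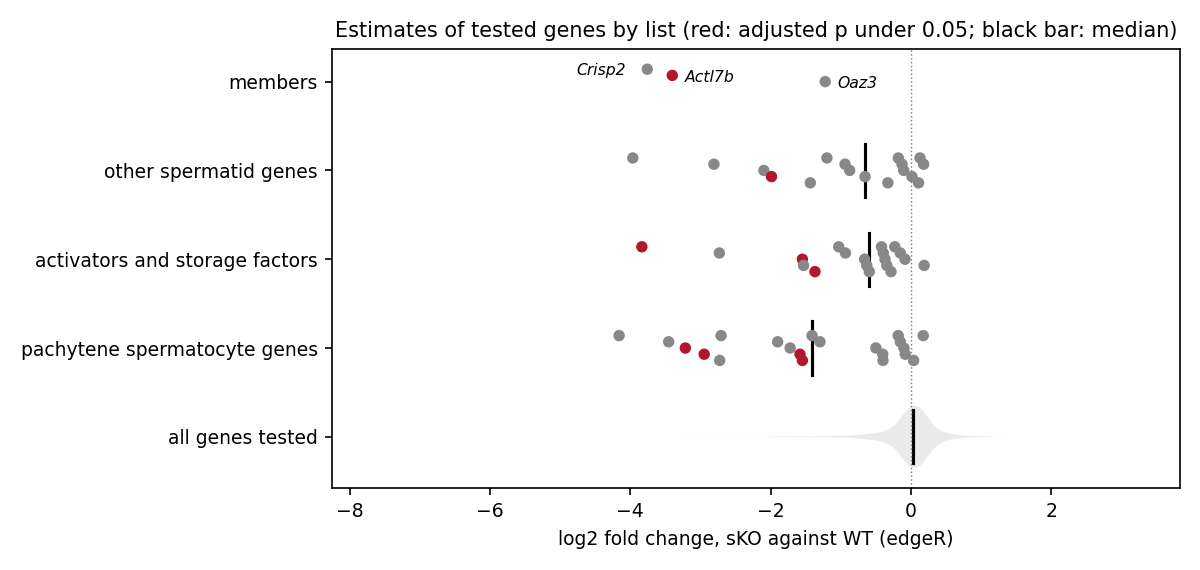
The edgeR log2 fold change of sKO against WT (x axis) for the tested genes of each list (rows, 1 point per gene, red where the adjusted p is under 0.05, black bar at the list median, not drawn for the members), with the distribution over all 18860 genes tested in the lowest row. Crisp2 and Actl7b, at -3.76 and -3.40, lie within the span of the pachytene list, and Oaz3 lies at -1.22.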

How the data were processed

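Poly(A) RNA of 6 testis samples had been sequenced. The authors deposited raw counts of reads by gene symbol, made with Trim Galore, HISAT2 and featureCounts on mm39, per the submitters' processing notes; the sources used here do not give versions, annotation, strand setting or the treatment of reads with several matches. Columns named con and scKO were read as WT and sKO by group word and replicate number. Counts were fitted with edgeR 4.0.16 in R 4.3.3 (filterByExpr, TMM, robust quasi-likelihood F test, no covariates), with Benjamini-Hochberg adjustment over 18860 genes. A gene passed the filter with about 10 counts in 3 libraries (0.597 CPM). The SE was derived from the F statistic. DESeq2 1.42.0 and limma 3.58.1 were alternatives. CPM values use TMM-scaled totals. The scripts were tested on simulated data. The floor was 3 counts.

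No libraries of 1 group agreed within counting noise (chi-square over its degrees of freedom 4.45 to 20.2). Exon lengths and overlaps came from GENCODE M21 (GRCm38) and promoters from RefSeq (GRCm38.p6); counts were made on another build, so no coordinates of counted features are given. The 10 genes and all lists were chosen with earlier results of these data known. Named were the 10, Rif1, close relatives and the called or smallest-p members of each list. Genes most correlated with a tested member (mean of at least 1 CPM, prior count 2) were named too. Spaca1, Fhl5, Crem, Tdrkh, Alb, Krt12, Spink8, Cdh16, Defb42, Ddx4, Sox9, Wt1, Star and the genes at 0 were named after their values were seen.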

Additional observations from a re-analysis of the deposited data

How the results depend on the processing

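At these depths 7 transcripts had too few counts to pass the filter, and the 240 genes called lower and 6 called higher depended on the fit. DESeq2 called 714 lower and 56 higher, limma-voom 0 and 0 (1598 lower and 932 higher at an unadjusted p under 0.05), edgeR without the low-count filter 992 and 154, and without both libraries numbered 1 155 and 5. Leaving out each library gave 0 to 624 lower and 0 to 31 higher; both were 0 in the fits lacking WT library 2 (1662 lower and 1102 higher at an unadjusted p under 0.05), sKO library 1 (1410 and 431) or sKO library 2 (1221 and 503). Members called lower numbered 1 with all libraries, 2 with DESeq2 (Actl7b and Crisp2, adjusted p 0.000818 and 0.00179), 0 with limma-voom (the smallest of their adjusted p was 0.0664) and 0 to 2 when each library was left out. With the replicate number as a block, 21 genes were called lower, 0 higher (605 at an unadjusted p under 0.05) and 0 members; Actl7b then had an adjusted p of 0.117 and Crisp2 one of 0.354. Deviations from the group means correlated at -0.40, 0.16 and -0.33 between same-numbered libraries. Only sKO library 2 correlated best with its own number, and no WT library did. With 3 libraries per group these values cannot tell whether samples were paired. With at least 1 count as the limit, 7 members were present in every WT and 6 in every sKO library; with more than 10 counts it was 3 and 0. Leaving out each library gave 3 to 4 for WT and 1 to 2 for sKO at the limit used. Over 36 alternatives for Crisp2, Actl7b and Oaz3 the sign held in each, with Actl7b between -3.94 and -2.80 and called in 5 of 12, and Crisp2 between -4.37 and -2.51 and called in 4 of 12. The causes were not tested.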
